A study of Mus musculus with 3 samples.

Results

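The levels of 10 secreted growth factors that act on vessels were measured in the stroma of mouse fat: Vegfa, Vegfb, Vegfc, Vegfd, Pgf, Angpt1, Angptl2, Hgf, Kitl and Edn1. These genes are a named set among the 32285 genes of the count tables, and all 10 passed the filter on low counts in every comparison. The cells were the CD31- CD45- part of the stromal vascular fraction, the cells that sink when fat is digested with collagenase and the adipocytes float off. Cells bearing the endothelial protein CD31 or the leukocyte protein CD45 had therefore been sorted out. The tissue was the subcutaneous inguinal depot of 3 wild-type male C57BL/6J mice aged 8 weeks. Each mouse gave 1 droplet single-cell library of 3' ends, in 1 condition, with no treatment and no altered allele.

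The vascular endothelial growth factors act as dimers on receptor tyrosine kinases of endothelial cells. VEGF-A drives the sprouting of vessels through VEGFR2 (Kdr), VEGF-B and placental growth factor (Pgf) bind VEGFR1 (Flt1), and VEGF-C and VEGF-D act on lymphatic vessels through VEGFR3 (Flt4) once they have been cleaved. Angiopoietin 1 (Angpt1) steadies vessels through Tie2 (Tek), HGF signals through Met, and the Kit ligand (Kitl, stem cell factor) sustains Kit-bearing blood progenitors and mast cells. Endothelin 1 (Edn1) is a strong constrictor of vessels that acts through Ednra and Ednrb. Fat grows and shrinks together with its capillary bed, and fat stroma is a known source of such factors.

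A UMI (unique molecular identifier) counts 1 captured RNA molecule. A cell was kept if over 500 genes had a UMI and if mitochondrial genes held under 5% of its UMIs. This left 12984, 6414 and 15179 cells in mice 1, 2 and 3, on which gates were set with raw UMIs. The progenitor gate took cells with at least 3 UMIs of Dpp4 and Pi16 together and at most 1 of Icam1 and Fabp4 together, and held 7426, 3193 and 9312 cells. The preadipocyte gate took cells with at least 4 UMIs of Icam1 and Fabp4 together and at most 1 of Dpp4, and held 2300, 1489 and 1946 cells. The regulatory gate, for adipogenesis-regulatory cells, took cells with a UMI of both Clec11a and Fmo2 and at most 1 each of Fabp4 and Dpp4, and held 319, 503 and 500 cells. UMIs were summed over the cells of a gate in each mouse and are given as CPM, UMIs per 1000000 UMIs of that sum. The mice are the replicates (n = 3), and each difference between gates was measured within the same animals.

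Mouse 2 stood apart in depth, with fewer and deeper cells (median 12192.5 UMIs a cell) than mice 1 and 3 (7392.5 and 6667). The kept cells held between 78108414 and 99328725 UMIs a mouse. Pairs of libraries had between 52 and 81 barcodes in common, and their gene totals differed beyond counting error. Genes that the gates had not used went mostly with the gates' names (edgeR calls at a false discovery rate of 0.05). These marker lists were chosen with earlier results of these data known, so they are a description and no independent support for the names. In preadipocytes against progenitors, all 9 further progenitor markers were called lower and all 9 further preadipocyte markers higher (28.3% and 27.6% of all genes). All 9 further regulatory markers were called higher in the regulatory than in the progenitor gate (19.6% of all genes). Preadipocytes and regulatory cells also shared markers. Against progenitors, 8 of 9 preadipocyte markers were called higher in regulatory cells, and 7 of 9 regulatory markers in preadipocytes. In regulatory cells against preadipocytes, 8 of 9 regulatory markers were called higher. There 7 of 9 preadipocyte markers were called lower and 2 higher (13% and 12.2% of all genes).

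The factors followed several patterns over the gates. Edn1, Pgf and Vegfd were highest in progenitors. Kitl and Hgf were high in both preadipocytes and regulatory cells, Vegfc was highest in regulatory cells, and Angptl2 was lowest there. Angpt1, Vegfa and Vegfb differed by less. Between the preadipocyte and progenitor gates 7 of the 10 factors were called by edgeR at a false discovery rate of 0.05 (3 higher and 4 lower in preadipocytes), where 55.9% of the 13843 genes tested were called (27.6% higher and 28.3% lower). Between the regulatory and progenitor gates all 10 were called (4 higher and 6 lower in regulatory cells), against 43.9% of all genes (19.6% higher and 24.3% lower). Between the regulatory and preadipocyte gates 4 were called (1 higher and 3 lower in regulatory cells), against 25.2% (12.2% higher and 13% lower). Since so many genes differed between the gates, being called says little about a factor, and the sizes given here describe them better. The ranges of the mice did not overlap for 7, 8 and 4 factors in these comparisons, where 43.2%, 37.8% and 26.2% of all genes had ranges that did not overlap. The comparisons were made from the same 9 sums, so they are not independent of each other.

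**Figure D1:**
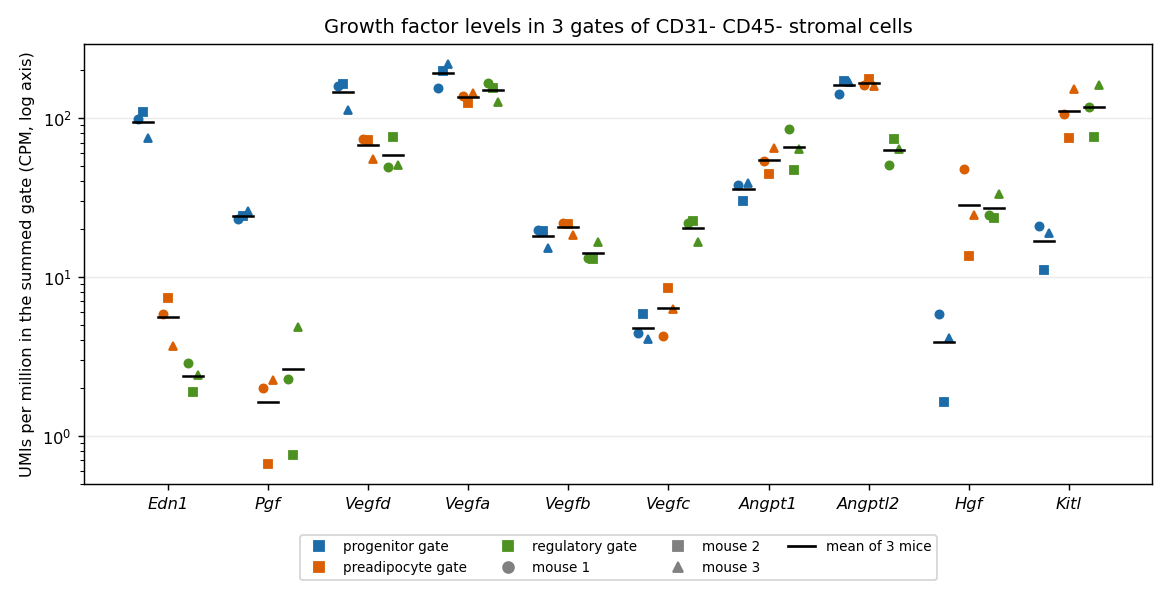
Level of each factor in the progenitor, preadipocyte and regulatory gates, in CPM of the summed gate on a log axis. Symbols are the 3 mice and black lines their means. Edn1 and Pgf in progenitors lie far above the other gates (means of 94.2 and 24.3 CPM), Kitl and Hgf in progenitors lie below them (16.9 and 3.87 CPM), and Vegfc is highest in regulatory cells (20.3 CPM).

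Edn1 (chr13:42301476-42307990, plus strand, GRCm38) had the widest range over the gates. Its level was 98.1, 109 and 75.05 CPM in the progenitors of mice 1, 2 and 3. It was 5.82, 7.35 and 3.66 CPM in their preadipocytes and 2.86, 1.88 and 2.41 CPM in their regulatory cells. Progenitors were high in every mouse, and no value of another gate came near them. The level in preadipocytes was 17.3-fold below that in progenitors (log2 fold change -4.11 ± 0.10 SE, edgeR adjusted p = 6.4e-11), and that in regulatory cells was 45.2-fold below (-5.50 ± 0.18, edgeR adjusted p = 9.1e-10). Progenitors held 86.1% ± 1.14 (SD, n = 3) of the Edn1 UMIs of all kept cells, and made up 57.6% of those cells. Regulatory cells were also called below preadipocytes (-1.39 ± 0.27, edgeR adjusted p = 0.0031). That level rests on 5, 10 and 6 UMIs, and the call was lost without mouse 2 (-0.78, adjusted p = 0.179), without the mouse as a block (-1.29, adjusted p = 0.059) and when each cell was thinned to 3000 UMIs (-0.47, adjusted p = 0.66). The gates of the thinned test were set again on the thinned UMIs, so its cells differ.

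In single cells Edn1 was uneven within the progenitor gate. At an equal depth of 3000 UMIs a cell, 16.9%, 17.0% and 12.6% of progenitors had an Edn1 UMI, and these positive cells held between 1.71 and 2.08 Edn1 UMIs on average. Fewer than 1 progenitor in 5 thus carried the transcript at this depth, in each mouse. The share was between 0.854% and 1.58% in preadipocytes and between 0.397% and 0.651% in regulatory cells. The kept cells still held 59 cells with endothelial markers (median 2033 UMIs, against 7281 in progenitors), and Edn1 had a UMI in 0 of 59 of them, which allows a share of cells with an Edn1 UMI of up to 5.08% (3 counts of the 59). This limits cells with a UMI and not cells that express the gene.

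The sequence before the Edn1 start is shown because Edn1 had the largest difference. RefSeq promoters were given for 9 of the 10 factors (Angpt1 has none there). Each was 250 bases before a RefSeq start on GRCm38.p6, which can differ from the gene position printed here. They were searched on both strands for the hypoxia-response cores ACGTG and GCGTG, the AP-1 motif TGANTCA, the TATA motif TATAAA and the GC box GGGCGG. Of 32851 promoters of this length, 16.6% held ACGTG, 28.2% GCGTG, 6.75% TGANTCA, 12.4% TATAAA and 32.7% GGGCGG. The Edn1 window, chr13:42301226-42301475 on the plus strand, held none of the 5 motifs and is printed in lower case throughout, from 5' to 3'.
Edn1: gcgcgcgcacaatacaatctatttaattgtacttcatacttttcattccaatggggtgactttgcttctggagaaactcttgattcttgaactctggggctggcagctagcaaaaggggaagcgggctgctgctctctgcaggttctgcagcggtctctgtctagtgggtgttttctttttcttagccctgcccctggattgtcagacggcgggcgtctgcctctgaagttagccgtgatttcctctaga

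Pgf (chr12:85166635-85177790, minus strand), the placental member of the VEGF family, went the same way as Edn1 at a lower level. Progenitors held 23.0, 24.1 and 25.8 CPM in mice 1, 2 and 3. Preadipocytes held 1.99, 0.664 and 2.23 CPM, and regulatory cells 2.29, 0.753 and 4.83 CPM, where single sums rest on 4 to 37 UMIs. The progenitors of the mice lay close together and all lay above every other value. Pgf was 16.1-fold lower in preadipocytes than in progenitors (-4.00 ± 0.25, edgeR adjusted p = 7.3e-08) and 11.2-fold lower in regulatory cells (-3.48 ± 0.38, edgeR adjusted p = 1.6e-05). The size of the regulatory difference is uncertain, since its sums rest on 4, 4 and 12 UMIs. The CPM ratio to progenitors was 0.0992, 0.0312 and 0.187 in the 3 mice, and the log2 fold change ran from -4.31 without mouse 3 to -2.70 without mouse 2. Between preadipocytes and regulatory cells no difference was called, and the 95% interval of that log2 difference ran from -0.75 to 1.80. At 3000 UMIs a cell, 5.84% ± 0.204 of progenitors had a Pgf UMI, against 0.432% ± 0.259 of preadipocytes (SD, n = 3). Before thinning the share was 1.15% ± 0.244 in preadipocytes and 1.35% ± 0.608 in regulatory cells (SD, n = 3), both inside the interval of the 2 of 59 cells with endothelial markers that had a Pgf UMI (3.39%, 95% exact interval 0.413% to 11.7%).

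Vegfd (chrX:164373378-164402650, plus strand) was the third factor highest in progenitors. It had 159, 164 and 112 CPM there, 73.8, 73.2 and 55.6 CPM in preadipocytes and 49.1, 75.7 and 50.7 CPM in regulatory cells. Progenitors did not overlap the other gates, while preadipocytes and regulatory cells overlapped. Vegfd was 2.21-fold lower in preadipocytes (-1.15 ± 0.08, edgeR adjusted p = 2.3e-07) and 2.42-fold lower in regulatory cells (-1.27 ± 0.10, edgeR adjusted p = 8.8e-07) than in progenitors. The lymphatic factor was broadly spread, with a UMI in 32.6% ± 5.01 of progenitors at 3000 UMIs a cell, against 16.6% ± 2.93 of preadipocytes and 13.6% ± 2.54 of regulatory cells (SD, n = 3). Of the 59 cells with endothelial markers, 3.39% had a Vegfd UMI before thinning (95% exact interval 0.413% to 11.7%). These cells had a median of 2033 UMIs, so this share is not at the depth of the others.

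Vegfc (chr8:54077606-54187096, plus strand), the other lymphatic factor, was highest in regulatory cells. It was at 4.43, 5.87 and 4.07 CPM in progenitors, 4.26, 8.47 and 6.32 CPM in preadipocytes, and 21.7, 22.6 and 16.5 CPM in regulatory cells. Regulatory cells were high in every mouse, and the other gates overlapped each other. Vegfc was 4.07-fold higher in regulatory cells than in progenitors (2.03 ± 0.19, edgeR adjusted p = 3.8e-06) and 3.22-fold higher than in preadipocytes (1.69 ± 0.19, edgeR adjusted p = 5.1e-05). The regulatory values rest on 38, 120 and 41 UMIs. At 3000 UMIs a cell, 5.63% ± 2.19 of regulatory cells had a Vegfc UMI, against 1.43% ± 0.309 of progenitors (SD, n = 3). Preadipocytes and progenitors were not called different (0.34 ± 0.16, edgeR adjusted p = 0.090), and without mouse 1 they were (0.55, adjusted p = 0.0045).

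Kitl (chr10:100015630-100100416, plus strand) was low in progenitors and high in the other gates. Its level was 20.8, 11.0 and 18.8 CPM in progenitors, 107, 74.7 and 153 CPM in preadipocytes and 118, 75.7 and 160.5 CPM in regulatory cells. Mouse 2 was lowest and mouse 3 highest outside the progenitor gate, and within each mouse both of those gates had nearly the same level. Those gates had 22, 95 and 57 cells in common, of 319, 503 and 500 in the regulatory gate. Kitl was 6.32-fold higher in preadipocytes (2.66 ± 0.11, edgeR adjusted p = 1.6e-09) and 6.86-fold higher in regulatory cells (2.78 ± 0.12, edgeR adjusted p = 8.2e-09) than in progenitors. The regulatory over preadipocyte difference was 0.12 ± 0.11 on the log2 scale, with a 95% interval from -0.13 to 0.37. At 3000 UMIs a cell, 4.27% ± 1.23 of progenitors, 23.0% ± 6.35 of preadipocytes and 24.2% ± 9.89 of regulatory cells had a Kitl UMI (SD, n = 3).

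Summed levels of endothelial and mural markers were also higher outside the progenitor gate, as Kitl was. Of 59 cells with endothelial markers, 52 fell in the preadipocyte gate, which rests in part on Fabp4, a gene of capillary endothelium as well as of fat cells. Of these 59 cells, 64.4% had a Kitl UMI before thinning (95% exact interval 50.9% to 76.4%), and 52% of 25 cells with mural markers did (31.3% to 72.2%). The summed level of the 8 endothelial markers was 0.759 to 1.45 CPM in progenitors and 4.33 to 5.14 CPM in regulatory cells, with Vwf at 0 in the last. In preadipocytes it was 32.8, 57.0 and 4.597 CPM in mice 1, 2 and 3. There mouse 2 was thus highest for these markers and lowest for Kitl, and mouse 3 the reverse. All 7 that could be tested were called higher in preadipocytes than in progenitors. The 8 mural markers summed to 18.2 to 27.9, 65.8 to 107 and 54.6 to 106 CPM in these gates, with Higd1b at 0 in regulatory cells. In the regulatory gate the 6 mesothelial markers summed to 0.571, 1.69 and 75.2 CPM in mice 1, 2 and 3. The 8 leukocyte markers summed to 15.1 to 25.1 CPM there, against 4.92 to 9.70 CPM in progenitors. The part of mesothelial and leukocyte cells in the factor levels was not tested. Cells with a UMI of Pecam1, Cdh5, Rgs5, Notch3, Ptprc or Tyrobp were then left out as cells with markers of other types. The Kitl difference was as large without them (2.69 over progenitors in preadipocytes and 2.81 in regulatory cells). Cells with UMIs of only the remaining listed markers stayed in. The 18 genes of the response to tissue dissociation also summed higher outside the progenitor gate, at 18498 to 22230.5 CPM in progenitors, 28538 to 34992 CPM in preadipocytes and 28789 to 30964 CPM in regulatory cells, and their part in these differences was not tested.

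Hgf (chr5:16553495-16620152, plus strand) shared the pattern of Kitl. Progenitors had 5.84, 1.63 and 4.15 CPM, preadipocytes 47.6, 13.6 and 24.4 CPM, and regulatory cells 24.6, 23.3 and 33.4 CPM. All progenitor values lay below all others, and the preadipocytes differed between mice by more than regulatory cells did. Hgf was 6.93-fold higher in preadipocytes (2.79 ± 0.22, edgeR adjusted p = 4.7e-07) and 8.08-fold higher in regulatory cells (3.01 ± 0.28, edgeR adjusted p = 3.6e-06) than in progenitors. Regulatory cells and preadipocytes were not called different (0.22 ± 0.25, 95% interval -0.32 to 0.76), and without mouse 1 regulatory cells were called higher (0.68, edgeR adjusted p = 0.0201). Without the cells that carried markers of other types, Hgf was 2.86 higher in preadipocytes and 3.11 higher in regulatory cells than in progenitors (log2). In progenitors 1.99% ± 0.685 of cells had an Hgf UMI (SD, n = 3), against 2 of the 59 cells with endothelial markers (3.39%, 95% exact interval 0.413% to 11.7%) at a median of 2033 UMIs. The progenitor share lay inside that wide interval. In preadipocytes and regulatory cells the share was 12.3% ± 4.499 and 11.6% ± 1.68 (SD, n = 3).

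The first of the Hgf starts given is shown for comparison with Edn1, which was highest where Hgf was lowest. A second Hgf window, chr5:16553651-16553900, held none of the 5 motifs and is not printed. The printed window is chr5:16553245-16553494, on the plus strand. Its single match, GCGTG read on the other strand, is in capitals 248 bases before the start.
Hgf: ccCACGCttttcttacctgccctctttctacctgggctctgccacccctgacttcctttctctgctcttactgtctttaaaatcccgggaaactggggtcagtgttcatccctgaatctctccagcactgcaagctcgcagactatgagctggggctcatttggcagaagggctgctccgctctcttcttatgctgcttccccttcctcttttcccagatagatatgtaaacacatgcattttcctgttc

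Angptl2 (chr2:33216069-33247717, plus strand), an angiopoietin-like protein that does not bind Tie2, was low in regulatory cells against both other gates. Its level was 143, 172 and 169 CPM in progenitors, 162, 176 and 159 CPM in preadipocytes and 50.3, 73.4 and 64.0 CPM in regulatory cells. Regulatory cells were low in every mouse, and the other gates overlapped. Angptl2 was 2.56-fold lower in regulatory cells than in progenitors (-1.36 ± 0.09, edgeR adjusted p = 1.8e-07) and 2.55-fold lower than in preadipocytes (-1.35 ± 0.09, edgeR adjusted p = 6.1e-07). Progenitors and preadipocytes differed by a log2 fold change between -0.16 and 0.15 (95% interval). At 3000 UMIs a cell, 37.6% ± 3.13 of progenitors, 37.5% ± 3.22 of preadipocytes and 14.4% ± 3.59 of regulatory cells had an Angptl2 UMI (SD, n = 3).

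Vegfc and Angptl2 moved in opposite directions between regulatory cells and the rest, and their windows are given side by side. They are chr8:54077282-54077531 and chr2:33215711-33215960, both on the plus strand, and the capitals mark GC boxes, which read CCGCCC here because they lie on the other strand. Each window held 2 of them, at 243 and 232 bases before the Vegfc start and at 83 and 8 bases before the Angptl2 start.
Vegfc: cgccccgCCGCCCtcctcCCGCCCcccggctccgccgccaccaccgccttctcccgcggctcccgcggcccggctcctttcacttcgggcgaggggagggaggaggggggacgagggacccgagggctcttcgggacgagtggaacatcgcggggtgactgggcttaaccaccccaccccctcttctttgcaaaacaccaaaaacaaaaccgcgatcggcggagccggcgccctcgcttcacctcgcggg
Angptl2: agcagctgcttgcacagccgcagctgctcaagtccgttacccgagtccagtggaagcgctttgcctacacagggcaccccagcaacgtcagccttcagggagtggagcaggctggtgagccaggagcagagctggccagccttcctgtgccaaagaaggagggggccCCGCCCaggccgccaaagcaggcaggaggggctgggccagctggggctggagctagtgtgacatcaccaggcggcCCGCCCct
Among the windows not printed, TATAAA was found 73 bases before the RefSeq start of Vegfd and 25 before that of Kitl. These windows (chrX:164373272-164373521 and chr10:100015571-100015820) reach into the genes at the positions printed here. The distances therefore hold for the RefSeq starts only. ACGTG was found only before the second of the Vegfa starts, 211 bases from it. That window (chr17:46025164-46025413) lies wholly inside Vegfa at the position printed here, so the match is within the gene. GCGTG, the other hypoxia-response core, was also found in that Vegfa window, 218 bases before the start. Besides Hgf, it was found before Vegfb (237 and 81 bases), the first of the Pgf starts (124 bases) and Kitl (62 bases). Of all promoters 28.2% held it. The Pgf window (chr12:85177314-85177563) also lies inside its gene at the position printed here. TGANTCA was found before none of the 9 factors.

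Angpt1 (chr15:42424723-42676977, minus strand) rose by smaller steps. It had 38.1, 30.1 and 39.2 CPM in progenitors, 53.7, 44.7 and 64.4 CPM in preadipocytes and 85.7, 47.1 and 64.0 CPM in regulatory cells. Progenitors lay below the other gates in all mice, and the other gates overlapped. Angpt1 was 1.46-fold higher in preadipocytes (0.55 ± 0.09, edgeR adjusted p = 0.00038) and 1.75-fold higher in regulatory cells (0.81 ± 0.12, edgeR adjusted p = 0.00014) than in progenitors. Regulatory cells were not called above preadipocytes (0.26 ± 0.12, edgeR adjusted p = 0.127), and without the filter on low counts they were (0.25, adjusted p = 0.033). The preadipocyte call was lost without the mouse as a block (0.55, adjusted p = 0.057).

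Vegfa (chr17:46016993-46032369, minus strand), the main sprouting factor, was high in every gate. Its level was 155, 199 and 219 CPM in progenitors, 137, 125 and 143 CPM in preadipocytes and 167, 155 and 125 CPM in regulatory cells. Progenitors lay above preadipocytes in each mouse, and in mouse 1 below the regulatory cells. Preadipocytes were called 1.46-fold lower than progenitors (-0.55 ± 0.12, edgeR adjusted p = 0.0023). Regulatory cells were called lower as well (-0.36 ± 0.13, edgeR adjusted p = 0.044), in 2 of 3 mice, and this call was lost in 7 of 13 alternative analyses, including the one with DESeq2 (adjusted p = 0.068) and those without mouse 2 or without mouse 3 (-0.35 and -0.14).

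Vegfb (chr19:6982473-6987651, minus strand) differed by small steps. It was at 19.7, 19.5 and 15.2 CPM in progenitors, 21.7, 21.4 and 18.4 CPM in preadipocytes and 13.1, 13.0 and 16.5 CPM in regulatory cells. Regulatory cells were called below preadipocytes (-0.52 ± 0.14, edgeR adjusted p = 0.019) with ranges that did not overlap, and below progenitors (-0.38 ± 0.14, edgeR adjusted p = 0.042) with ranges that did. Both calls were lost without mouse 1 (adjusted p = 0.083 and 0.195), without mouse 2 (0.299 and 0.52) and without the mouse as a block (0.116 and 0.173). That against progenitors was lost in 6 of 13 alternative analyses in all, including the one with DESeq2 (adjusted p = 0.091), and its log2 fold change ran from -1.06 to -0.17 over them. Preadipocytes and progenitors were not called different (0.13 ± 0.09, 95% interval -0.07 to 0.33).

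**Figure D2:**
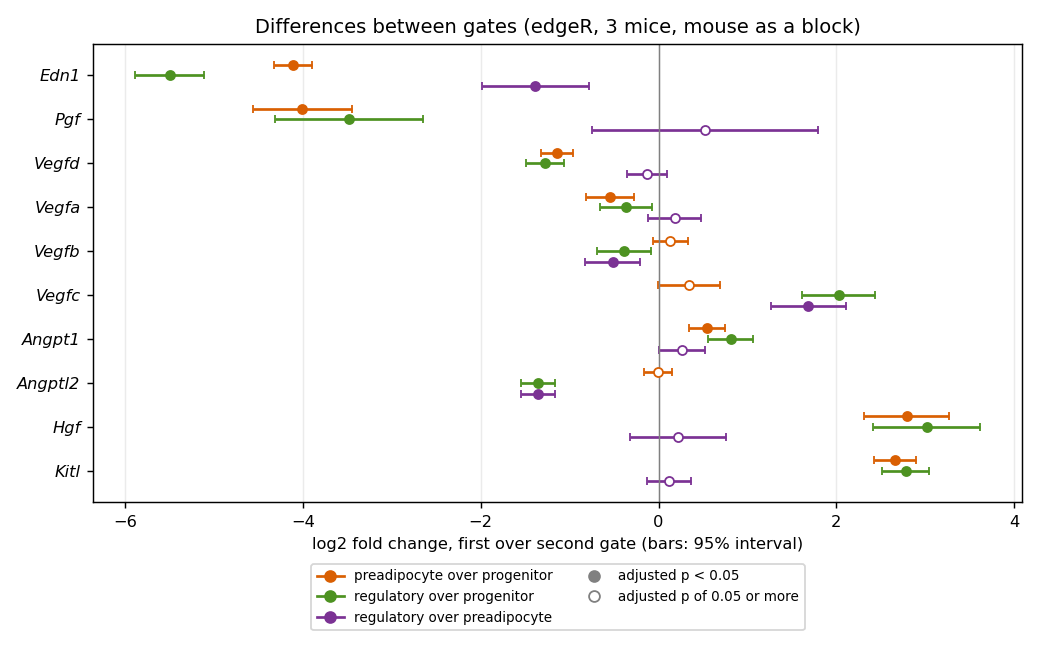
Log2 fold change of each factor between gates, with bars for the 95% interval of edgeR's fit over 3 mice. Filled points passed an adjusted p of 0.05. The longest distances from 0 are those of Edn1 (-4.11 and -5.50) and Pgf (-4.00 and -3.48) against progenitors, and most points of the regulatory over preadipocyte comparison lie near 0.

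Shares of cells with a UMI depend on depth, so each cell was thinned to 3000 UMIs. Shallower cells were left out, 63 to 812 progenitors, 35 to 72 preadipocytes and 42 to 123 regulatory cells a mouse. Of 50 differences in share between groups, over the 10 factors and 5 comparisons, 37 had the same sign before and after thinning. Regulatory cells were the shallowest gate (median 6180 UMIs, against 7281 in progenitors and 8300 in preadipocytes). For Vegfa, 47.7% ± 11.5 of regulatory cells had a UMI before thinning and 31.3% ± 5.25 after, against 56.7% ± 5.31 and 29.9% ± 1.63 of preadipocytes (SD, n = 3). With 3 mice the exact sign-flip test on shares cannot go below a 2-sided p of 0.25, so no share was called.

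**Figure D3:**
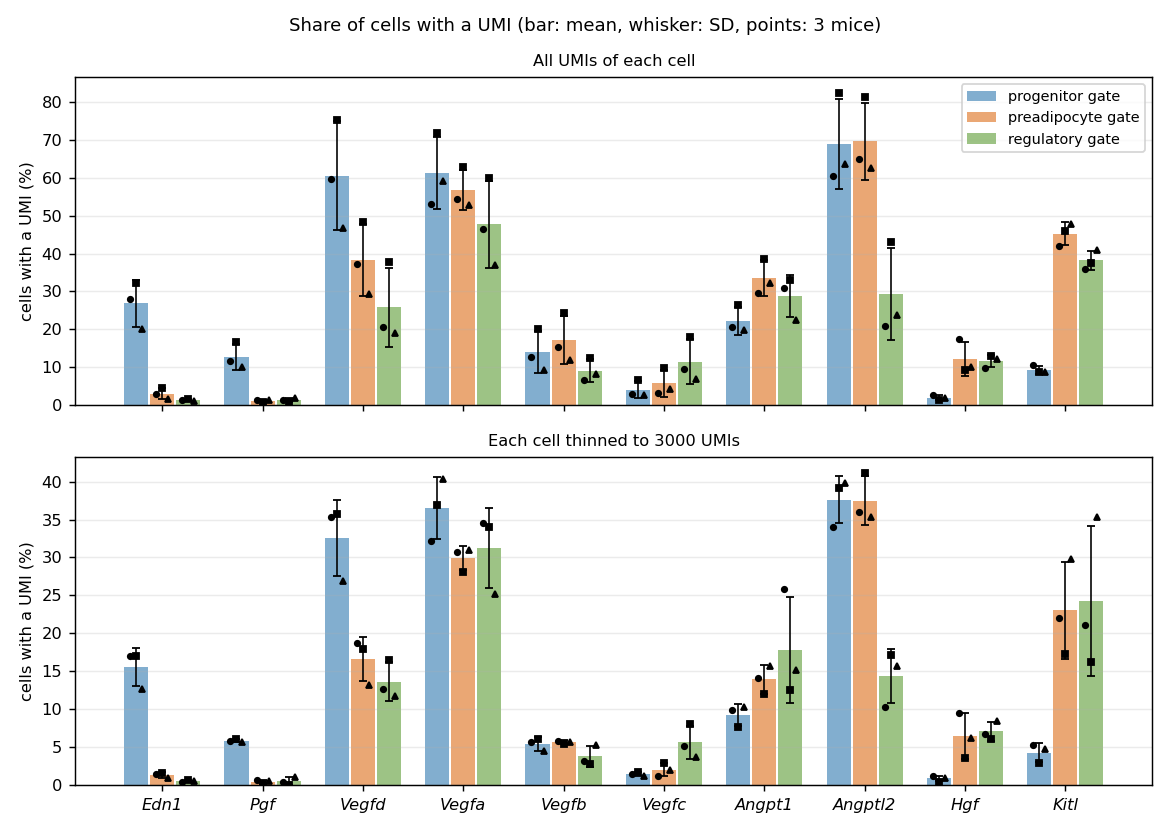
Share of cells with at least 1 UMI of each factor, in percent, before (top) and after (bottom) thinning each cell to 3000 UMIs. Bars are means of 3 mice, whiskers the SD and symbols the mice. Edn1 and Pgf were found mostly in progenitors (15.5% and 5.84% after thinning), Kitl and Hgf mostly in the other gates.

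The preadipocyte gate was then divided by the UMIs of Cd44, the hyaluronan receptor. The study separates ICAM1+ cells into CD44-high cells, which it calls pro-preadipocytes, and CD44-low preadipocytes, by clusters and by sorting on surface protein. The split here rests on RNA, in a gate that a cell can enter on Fabp4 alone. Its groups need not be the populations of the study. Cells with at least 2 Cd44 UMIs numbered 301, 348 and 337, and those with 0 numbered 1570, 795 and 1188. In this split 4 of the 10 factors were called (3 higher and 1 lower in Cd44-high cells), against 18.8% of 11708 genes (12.2% higher and 6.56% lower). Of all calls 65.1% were higher, and 41.6% when library size alone set the scale, which moved the median of all genes to -0.10 (log2).

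Kitl was at 159, 102 and 213 CPM in Cd44-high and 95.7, 62.3 and 135 CPM in Cd44-zero preadipocytes of mice 1, 2 and 3. The ranges overlapped between mice, and within each mouse Cd44-high cells were higher, by 1.66, 1.64 and 1.58 times. The log2 fold change was 0.79 ± 0.07 (edgeR adjusted p = 3.6e-06), and 0.89 after thinning and gating again on the thinned UMIs (adjusted p = 0.0041). At 3000 UMIs a cell, the share of cells with a Kitl UMI was 30.4% ± 8.63 in Cd44-high and 20.5% ± 6.00 in Cd44-zero cells (SD, n = 3), higher in 3 of 3 mice. All 6 endothelial markers tested were lower in Cd44-high cells (1.17 to 2.13 CPM in sum, with Emcn and Vwf at 0, against 6.56 to 90.2 CPM). Without the cells that carried markers of other types, the Kitl difference was 0.77 (edgeR adjusted p = 3.6e-06). The dissociation genes summed to 24455 to 29375 CPM in Cd44-high and 30252 to 36343 CPM in Cd44-zero cells (3 called higher and 9 lower), and their part in the difference was not tested.

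Hgf was at 62.3, 18.0 and 30.8 CPM in Cd44-high and 42.6, 10.4 and 20.2 CPM in Cd44-zero cells. It was again higher within each mouse (0.72 ± 0.10, edgeR adjusted p = 0.00034). The call was lost after thinning, where the gates and the split were set again on the thinned UMIs (0.43, adjusted p = 0.857). With the cells split at full depth, the share with an Hgf UMI at 3000 UMIs was higher in Cd44-high cells in 3 of 3 mice. It was 7.95% ± 4.28, against 5.67% ± 2.81 in Cd44-zero cells (SD, n = 3). Vegfd was called higher (0.32 ± 0.07, edgeR adjusted p = 0.0083) and Vegfb lower (-0.40 ± 0.12, edgeR adjusted p = 0.040). These calls were lost after thinning (0.02 and -0.60, adjusted p = 0.994 and 0.868), with DESeq2 (0.136 and 0.392) and without mouse 2 (0.074 and 0.176), and that of Vegfb also without mouse 1 or mouse 3 (0.066 and 0.114). For Vegfa, with 119, 145 and 139 CPM against 141, 117 and 144 CPM, no direction was common to the mice (0.11 ± 0.10, 95% interval -0.10 to 0.31). The other 5 factors were not called, with log2 fold changes between -0.37 (Edn1) and 0.43 (Pgf). Without the mouse as a block none of the 10 was called in this split.

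The progenitor gate was divided by Nr4a3 and Fosl1, because earlier results of these data had found progenitors led by these genes. The names activated and resting stand for the UMIs of these genes only, and the state of the cells was not tested. Activated cells, with at least 2 UMIs of them together, numbered 3390, 1805 and 5514, and resting cells, with 0, numbered 2788, 1010 and 2249. Of the 10 factors 4 were called (2 higher and 2 lower in activated cells), against 18.9% of 13039 genes (11.1% higher and 7.85% lower). Of all calls 58.5% were higher, and 26.2% on the scale of library size alone, which moved the median of all genes to -0.11 (log2).

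Edn1 was at 76.0, 61.7 and 52.0 CPM in activated and 129, 201 and 134 CPM in resting progenitors. Resting cells were higher in every mouse and the groups did not overlap, as for 19.9% of all genes. Edn1 was 2.22-fold lower in activated cells (-1.15 ± 0.13, edgeR adjusted p = 0.0022). The share of cells with an Edn1 UMI at 3000 UMIs a cell was 11.1% ± 2.22 in activated and 22.8% ± 4.48 in resting cells (SD, n = 3), and positive cells held 1.58 to 1.74 and 1.79 to 2.31 Edn1 UMIs on average. Kitl was also lower in activated cells, at 14.7, 9.72 and 15.0 CPM against 30.6, 13.2 and 28.2 CPM (-0.75 ± 0.12, edgeR adjusted p = 0.0072). The ranges of Kitl overlapped, with mouse 2 lowest on both sides. The 18 dissociation genes summed to 16138 to 19439 CPM in activated and 22907 to 25814 CPM in resting cells (3 called higher and 9 lower), and their part in these differences was not tested.

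Vegfa went the other way. It was at 166, 224 and 239.5 CPM in activated and 146, 160.2 and 169.9 CPM in resting progenitors. Activated cells were higher in each mouse, with ranges that overlapped (0.51 ± 0.08, edgeR adjusted p = 0.0064). The 15 genes of the hypoxia response, of which Vegfa is a classical companion, summed to 1074 to 1234 CPM in activated and 789 to 943 CPM in resting cells, and 4 of 15 were called higher and none lower (against 11.1% and 7.85% of all genes), among them Hilpda (1.21 ± 0.15), Hk2 (1.04 ± 0.16) and Ndrg1 (0.55 ± 0.09). In Cd44-high preadipocytes the same list summed to 1206 to 1427 CPM, against 910 to 989 CPM in Cd44-zero cells, with 5 of 13 tested called higher (against 12.2% of all genes), while Vegfa was not called there. Between the gates the sums overlapped, at 997 to 1112 CPM in progenitors, 999 to 1080 in preadipocytes and 1012 to 1131 in regulatory cells. Of the list, 4 were called higher and 7 lower in preadipocytes than in progenitors (27.6% and 28.3% of all genes). In regulatory cells 4 were called higher and 3 lower than in progenitors (19.6% and 24.3%). The part of the hypoxia response in the Vegfa differences was not tested. Vegfd was called higher in activated cells by a small step (0.18 ± 0.05, edgeR adjusted p = 0.037), in 2 of 3 mice, and the call was lost with DESeq2 (adjusted p = 0.165), with library size alone (0.06, adjusted p = 0.418) and without mouse 1 or mouse 3 (adjusted p = 0.146 and 0.166). Hgf was not called (-0.46 ± 0.19, edgeR adjusted p = 0.130). It was called lower in 3 alternative analyses: after thinning and gating again (-1.24, adjusted p = 0.011), without the top 5% of UMIs (-0.60, adjusted p = 0.047) and without mouse 2 (-0.62, adjusted p = 0.0056). Without the mouse as a block none of the 10 was called.

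**Figure D4:**
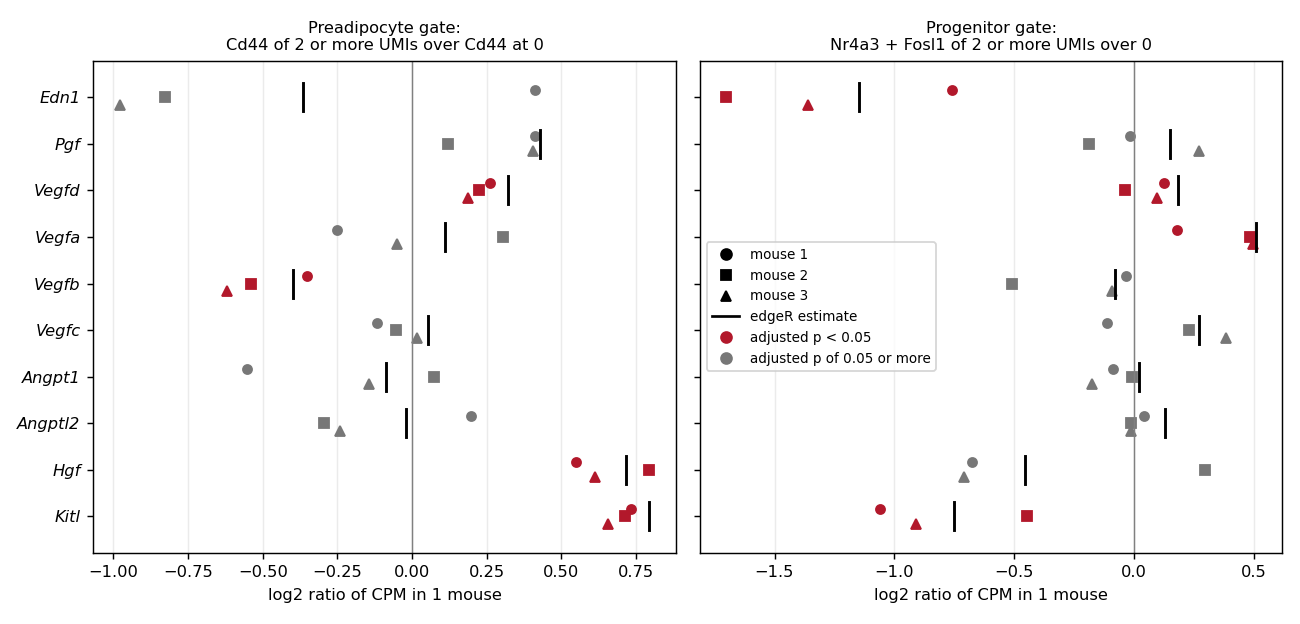
Log2 ratio of CPM within each mouse for the Cd44 division of the preadipocyte gate (left) and the Nr4a3 and Fosl1 division of the progenitor gate (right). Symbols are mice, black bars edgeR's estimates (on the TMM scale, so they can lie beside the mice), and red marks factors with an adjusted p under 0.05. Kitl lies to the right on the left side (0.79) and to the left on the right side (-0.75), and Edn1 in activated progenitors lies furthest from 0 (-1.15).

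Receptors for these factors were also read in the stroma, since a ligand may act on the cells around it. Of 11 receptor genes 9 could be tested between preadipocytes and progenitors. Of these, 5 were called higher and 2 lower in preadipocytes, where 55.9% of all genes were called (27.6% higher and 28.3% lower). The receptor Tie1 is also among the endothelial markers, and cells with those markers lay mostly in the preadipocyte gate. Tek, the angiopoietin receptor known from endothelium, was at 154 ± 15.0 CPM in progenitors, 31.6 ± 4.78 CPM in preadipocytes and 21.8 ± 1.34 CPM in regulatory cells (SD, n = 3), with log2 fold changes against progenitors of -2.34 ± 0.07 and -2.81 ± 0.09 (edgeR adjusted p = 1.4e-10 and 9.1e-10). Nrp1, a coreceptor of VEGF-A and of semaphorins, had the reverse order, at 45.8 ± 6.04, 153 ± 16.5 and 229 ± 41.2 CPM, and was called between all gates. The high level of Tek thus lay in the gate where Angpt1 was lowest.

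The signalling receptors of the VEGF family were scarce. Kdr had 602 UMIs in the progenitors of all mice, or between 1.53 and 7.41 CPM. It had 212 UMIs in all preadipocytes, or between 0.359 and 7.15 CPM, and 2 UMIs in all regulatory cells. Flt1 and Flt4 had 20 and 16 UMIs in all progenitors and 0 in regulatory cells. Flt1 was at 3.22 ± 2.27 CPM in preadipocytes, where most cells with endothelial markers lay. Kit, the receptor of Kitl, had 6, 9 and 2 UMIs in all progenitors, preadipocytes and regulatory cells. Tie1, a partner of Tek, had 1, 49 and 1 UMIs in them. Flt1, Kdr and Tie1 were at 5.19, 5.56 and 1.35 CPM in Cd44-zero preadipocytes and at 0.243, 0.445 and 0.0647 CPM in Cd44-high ones. The endothelial markers summed to 47.2 and 1.59 CPM on average in those groups. The part of cells with endothelial markers in these receptor levels was not tested. Nrp2, a coreceptor of VEGF-C and semaphorins, was at 4.496 ± 1.05, 5.65 ± 1.86 and 3.38 ± 1.35 CPM in the 3 gates (SD, n = 3) and was called between none of them. Met was at 11.1 ± 3.36 CPM in progenitors, where Hgf was lowest, and lower in preadipocytes (-1.87 ± 0.15, edgeR adjusted p = 4.6e-07) and regulatory cells (-1.16 ± 0.21, edgeR adjusted p = 0.00075). Ednra was at 0.214 ± 0.0397 CPM in progenitors, where Edn1 was highest, and at 5.54 ± 1.73 and 5.98 ± 2.98 CPM in preadipocytes and regulatory cells (4.603 ± 0.31 and 4.82 ± 0.41, edgeR adjusted p = 1.2e-07 and 1.9e-06). Ednrb had 8, 125 and 0 UMIs in all progenitors, preadipocytes and regulatory cells, and was at 2.42 ± 0.439 CPM in preadipocytes (SD, n = 3).

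**Figure D5:**
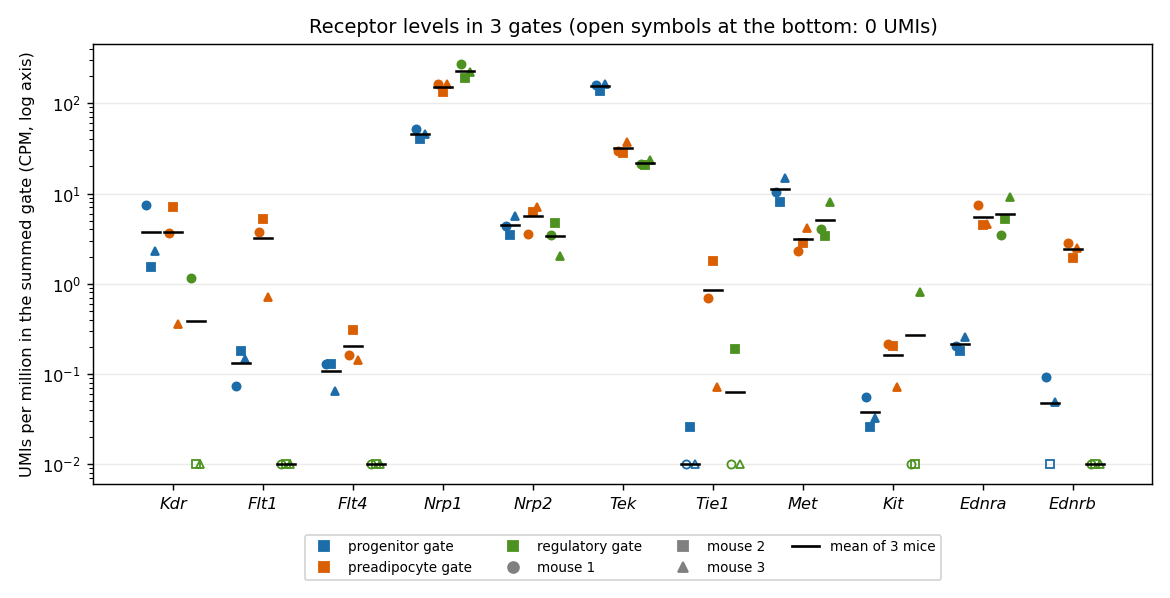
Levels of the factors' receptors in the 3 gates, in CPM of the summed gate on a log axis, with open symbols at the bottom for mice with 0 UMIs. Tek is highest in progenitors (154 CPM), Nrp1 and Ednra are lowest there (45.8 and 0.214 CPM), and Kit and Flt4 are under 1 CPM in every mouse. Lines at the bottom are means of 0.01 CPM or less.

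Enzymes that release or destroy the factors were listed as well. Of 15 listed genes 11 could be tested, of which 4 were called higher and 4 lower in preadipocytes, 3 higher and 4 lower in regulatory cells than in progenitors, and 2 higher and 5 lower in regulatory cells than in preadipocytes. Of all genes 55.9%, 43.9% and 25.2% were called in these comparisons. Ccbe1, the cofactor by which VEGF-C is cleaved to its active form, was at 0.580 ± 0.102, 3.80 ± 1.76 and 23.0 ± 3.70 CPM in progenitors, preadipocytes and regulatory cells, so it was highest where Vegfc was. Its log2 fold change in regulatory cells was 5.21 ± 0.28 over progenitors and 2.63 ± 0.25 over preadipocytes (edgeR adjusted p = 4.0e-08 and 1.1e-05). Mme, the neutral endopeptidase that degrades endothelin, was at 29.3 ± 11.1 CPM in progenitors, where Edn1 was highest, and at 186 ± 52.6 CPM in preadipocytes (2.64 ± 0.13, edgeR adjusted p = 7.8e-09). Adam17, a sheddase that cuts Kitl among many substrates, was lower in preadipocytes (-0.71 ± 0.06, edgeR adjusted p = 5.8e-07). Ece1, which makes endothelin from its precursor and was picked after its values were seen, was at 88.1 ± 7.39, 74.2 ± 5.14 and 58.5 ± 5.71 CPM.

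Among 25 other ligands of vessels, 23 could be tested, of which 9 were higher and 8 lower in preadipocytes, 13 higher and 6 lower in regulatory cells than in progenitors, and 14 higher and 4 lower in regulatory cells than in preadipocytes, against 55.9%, 43.9% and 25.2% of all genes called in either direction. The median log2 fold changes of the list were 0.31, 0.79 and 0.81, against 0.02, -0.04 and -0.04 over all genes. Sema3c and Pdgfc were highest in progenitors, as Edn1 was, with log2 fold changes of -4.11 ± 0.12 and -3.92 ± 0.11 in preadipocytes (edgeR adjusted p = 1.6e-10 for both). Sema3c is also among the further progenitor markers listed for the gates. Cxcl12, the chemokine that holds blood progenitors, was at 71.5 ± 14.0, 306 ± 86.0 and 1014 ± 309 CPM in progenitors, preadipocytes and regulatory cells, and Mdk was 3.73 ± 0.09 higher in preadipocytes than in progenitors (edgeR adjusted p = 6.4e-11). Angpt2, the partner of Angpt1 that opposes it on vessels and was picked after its values were seen, was at 0.298 ± 0.161, 1.15 ± 0.392 and 14.1 ± 6.41 CPM. It was thus highest in the regulatory gate, as Vegfc was.

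The genes whose levels went most closely with each factor over the 9 sums are given as a description, since the sums share mice and gates. Vegfc went with Avpr1a, a vasopressin receptor (Pearson r = 0.995), and Col1a2 (0.988). Pgf went with Akr1c18 (0.994) and Zyx (0.989), and Edn1 with Etfa (0.995) and Mfap5 (0.992). Kitl went with Pros1 (0.993) and Emp1 (0.989), and Hgf with Sned1 (0.982) and Tpm3 (0.981). For Angptl2 the closest were Htra3 (0.987) and Rhoj (0.974), for Angpt1 Scpep1 (0.969) and Arhgef40 (0.960), and for Vegfd Rpl3 and Leprot (0.977 for both). Vegfa and Vegfb had no gene above 0.95, the closest being Sgms1 (0.873) and Rab43 (0.868) for Vegfa and Atp5a1 (0.925) and Suds3 (0.919) for Vegfb. Among the factors themselves r was 0.9498 between Hgf and Kitl, 0.932 between Edn1 and Vegfd, and -0.948 between Edn1 and Kitl.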

How the data were processed

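Single cells of 3 mice were measured as UMI counts per gene. The deposited counts had been made by the authors with Cell Ranger (2.1.1 in the submitters' processing notes, with mm10, and 4.0.0 in the file header) and were not normalized. The members and gene lists were chosen with earlier results of these data known. Counts were summed per mouse and gate and tested with edgeR 4.0.16 (R 4.3.3, quasi-likelihood test, low-count filter, TMM scaling) with the mouse as a block, since the sums of a mouse come from 1 animal (deviations of its sums correlated by 0.530 to 0.909 over 5520 genes), and Benjamini-Hochberg adjustment over all genes tested. Cells in 2 gates (49, 119 and 96) were counted in both. Of them 22, 95 and 57 were in the preadipocyte and regulatory gates. No doublet caller was run, and leaving out the top 5% of UMIs was an alternative, as were DESeq2 1.42.0, library size scaling, no filter, no block, thinning, stricter gates, a mitochondrial limit of 10%, leaving out cells with other-type markers, and leaving out each mouse. For the edgeR test of thinned cells, the gates and splits were set again on the thinned UMIs. Shares after thinning kept the gates set at full depth. The tests were tried on simulated data. Intervals of shares are exact binomial ones, the limit of a share with 0 cells is 3 counts of the total, and both cover counting error only. All factors and receptors are named, and of each other list and comparison at most the 3 largest called differences with the same sign in 3 mice and 20 CPM or more on average in a group, with the 2 genes most like each factor over 9 sums among the 5519 or 5520 compared. Gene positions are those of GENCODE M21 (GRCm38), which matched 32158 of 32285 identifiers. With the mouse as a block, p-values set a difference against the spread of differences within a mouse over 3 mice. edgeR moderates that spread with the spread of all genes tested, and the 3 gates were fitted together. The p-values thus do not rest on the 3 mice of a single gene alone. Differences in level between the mice are taken out by the block.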

Additional observations from a re-analysis of the deposited data

How the results depend on the processing

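Of 626 values of the factors under alternative settings, 549 kept their direction and their side of the threshold, 42 lost a call, 7 gained one and 28 changed sign. No called difference changed sign. The sign changes of uncalled differences were, for Angptl2 in preadipocytes over progenitors, 0.0464 with library size alone, 0.0300 with thinned cells, 0.0040 with stricter gates, 0.0057 without the top 5% of UMIs, 0.0051 without cells with other-type markers, 0.0115 without cells in 2 gates (chosen after seeing the data) and -0.0525 to 0.0715 leaving out each mouse. In regulatory cells over preadipocytes, Hgf was at -0.0031 without the mouse block and -0.14 to 0.68 leaving out a mouse, Pgf at -0.13 thinned and -0.0842 to 0.87, and Vegfd at -0.28 to 0.0101. In the Cd44 split, Vegfc was at -0.0490 with library size alone, -0.0262 with stricter gates and -0.0069 without other-type cells. There Vegfa was at -0.0925 thinned and -0.0888 to 0.24 leaving out a mouse, Angptl2 at 0.0227 thinned, 0.0034 without the top 5% and -0.17 to 0.0522, Angpt1 at 0.0576 with stricter gates and -0.27 to 0.0753, and Pgf at -0.0177 with a mitochondrial limit of 10%. In the activation split, Angpt1 was at -0.0958 with library size alone and -0.0572 to 0.0832 leaving out a mouse, Vegfc at -0.32 thinned, and Vegfb at -0.15 to 0.0130.

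Without the mouse as a block, the count of called genes fell from 7732 to 4009 (preadipocyte over progenitor), from 6081 to 3178 (regulatory over progenitor), from 3487 to 1470 (regulatory over preadipocyte, 2 factors in place of 4), from 2199 to 1 (Cd44, 0 factors) and from 2466 to 12 (activation, 0 factors). Thinned cells, with gates and splits set again, gave 3475 (regulatory over progenitor), 1909 (regulatory over preadipocyte), 169 (Cd44, 1 factor) and 1482 (activation). DESeq2 gave 786 in the Cd44 split (2 factors) and 1218 in the activation split, and stricter gates gave 1199 in the Cd44 split. Leaving out each mouse gave 2089 to 2602 genes and 2 to 4 factors (regulatory over preadipocyte), 1074 to 1673 genes and 2 to 3 factors (Cd44), and 1215 to 2926 genes (activation). Of 60 shares of cells, 30 moved by more than the SD between mice. These were the shares after thinning, where taking UMIs from a cell can only lower its chance of holding one. Leaving out the top 5% of UMIs moved no share by that much. For Kitl in preadipocytes the mean share was 45.2%, and it was 23.0% after thinning and 44.4% without the top 5%. With 3 mice and few UMIs of Edn1 and Pgf outside the progenitor gate, their differences between preadipocytes and regulatory cells are uncertain. Vegfc and Angptl2 kept their calls in that comparison in 13 of 13 alternatives. In the Cd44 split the call of Vegfb was lost in 7 of 12 and that of Vegfd in 4 of 12. The causes of the changes in calls and signs were not tested.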

Other observations

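Secreted inhibitors of vessel growth were compared between the gates. Of 13 listed inhibitors all could be tested, of which 6 were called higher and 4 lower in preadipocytes than in progenitors, 7 higher and 4 lower in regulatory cells than in progenitors, and 4 higher and 7 lower in regulatory cells than in preadipocytes. Of all genes 55.9%, 43.9% and 25.2% were called in these comparisons. Thbs1, the matrix protein thrombospondin 1, was at 11.3 ± 2.88 CPM in progenitors, 215 ± 39.0 CPM in preadipocytes and 59.8 ± 24.3 CPM in regulatory cells (SD, n = 3), and was higher in preadipocytes than in progenitors (4.21 ± 0.16, edgeR adjusted p = 1.0e-09). It was higher again in Cd44-high preadipocytes (0.78 ± 0.10, edgeR adjusted p = 7.7e-05), as Kitl was. Its relative Thbs2 had another order, at 224 ± 31.0, 155 ± 19.9 and 22.5 ± 5.65 CPM, lowest in the regulatory gate (-3.32 ± 0.18, edgeR adjusted p = 4.9e-08), where Angptl2 was lowest too. Timp3, which blocks metalloproteinases and VEGFR2, was also lowest there (-1.69 ± 0.09, edgeR adjusted p = 4.2e-08). Col18a1 and Col4a3, collagens whose fragments inhibit vessel growth, were higher in preadipocytes than in progenitors (2.58 ± 0.12, edgeR adjusted p = 6.7e-09 for Col18a1).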
